A study of Mus musculus with 32 samples.

Results

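The Siglecs and C-type lectin receptors described here were 9 genes, 5 C-type lectin receptors (Clec7a, Clec5a, Clec4a1, Clec4a2 and Clec4a3) and 4 Siglecs (Cd22, Siglece, Siglech and Cd33). They were taken by name from a table of 18588 genes measured in mouse microglia, in which all 9 had a value in every library. Both families are surface receptors of myeloid and lymphoid cells that bind glycans or other ligands. Siglecs bind sialic acid, and most carry inhibitory motifs that recruit the phosphatase SHP-1 (Ptpn6), whereas Siglec-H works through the activating adaptor DAP12 (Tyrobp). Among the C-type lectin receptors, Dectin-1 (Clec7a) signals through the kinase SYK and CARD9, and CLEC5A through DAP12, while DCIR (Clec4a2) is inhibitory.

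The study followed microglia from the rTg4510 model of tauopathy and from WT mice at 2, 4, 6 and 8 months of age by RNA-seq. All mice were female. The rTg4510 mice expressed mutant human tau in forebrain neurons under a tetracycline-responsive promoter, driven by a transactivator under the CaMKIIα promoter, so the microglia themselves were not the cells targeted by the transgene. The labels gave the strain of the WT mice as 129/FVB F1 and that of the transgenic mice as rTg4510. The WT mice were littermates that carried neither the tau transgene nor the transactivator. The genotypes thus differed in the transactivator as well as in tau. Each library came from cells that CD11b MicroBeads had captured from the pooled forebrains of several animals, so a replicate is a pool and not a single mouse. Of 32 libraries, 28 were used: each genotype had 4 at 2 months, 3 at 4 months, 4 at 6 months and 3 at 8 months. In both genotypes, replicate 3 at 4 months and replicate 4 at 8 months (4 libraries) did not pass the study's RNA-seq quality control and were left out; calls of named genes that change with them are given both ways.

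Values are log2 gene signals whose median was the same in every library (5.63). Read counts were not used here, so no counting error of single values is given. The signals are not scaled to gene length, so levels are compared between samples for 1 gene and not between genes. Fold changes are rTg4510 minus WT on the log2 scale with their standard error (SE). A gene is called here up-regulated or down-regulated, a DEG, when its false discovery rate (FDR) from limma was under 0.05 over all 18588 genes and its change was above 1.5 fold. The microglial identity of the libraries was checked against 9 markers, all of which were measured and none of which lay within 1 log2 unit of the lowest value of the libraries in any group. Their summed signal on the log2 scale ran from 14.7 to 15.2 in the WT libraries and from 14.4 to 14.9 in the rTg4510 libraries, and Cx3cr1 gave the largest share of the sum. By age, the sums of the genotypes overlapped at 2 months. They were lower in rTg4510 with no overlap at 4 months (14.85 to 15.08 in WT, 14.65 to 14.74 in rTg4510). The same held at 6 months (15.00 to 15.15 against 14.62 to 14.83) and at 8 months (14.72 to 14.99 against 14.41 to 14.52). None of the 9 was up-regulated, and the down-regulated ones were Fcrls at 2 months, Tmem119 and Sall1 at 4 months, Tmem119, Sall1 and Itgam, which encodes the CD11b used for capture, at 6 months, and Tmem119, Sall1 and Fcrls at 8 months. The call of Fcrls at 2 months was lost without rTg4510 replicate 1 (-0.55), and that of Sall1 at 8 months when only the libraries of that age were fitted (FDR 0.0602). Itgam, not called at 8 months (-0.58), passed there with all 32 libraries (-0.61), after quantile normalization (-0.78), without rTg4510 replicate 3 (-0.60) and without WT replicate 1 (-0.65). Fcrls, not called at 6 months (-0.58), passed after quantile normalization (-0.74), without rTg4510 replicate 3 or 4 (-0.60 and -0.63) and without WT replicate 1 (-0.60). Cx3cr1 lay just under the fold limit at 4 and 6 months (-0.57 at both). Without rTg4510 replicate 3 or WT replicate 1 of 6 months, 5 of the 9 were down-regulated at that age in place of 3. After quantile normalization 4, 7 and 7 were down-regulated at 4, 6 and 8 months. In bulk samples, fewer cells of a type and less RNA per cell cannot be told apart.

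Clec7a and Cd22 rose steeply in rTg4510 microglia between 2 and 4 months and stayed high, while Clec4a2 and Siglece fell. Clec5a and Siglech moved less, in opposite directions, and lay close to the 1.5-fold limit at 8 months. Clec5a passed the call rule only at that age, and Siglech, Clec4a1, Clec4a3 and Cd33 passed it at no age. At 2 months 1 of 9 genes was up-regulated (Cd22), against 1.58% of all genes, and 0 were down-regulated, against 0.403%. By limma, 5 of the 9 had an unadjusted p under 0.05 in either direction, against 3069 of 18588 genes. At 4 months 2 were up-regulated (Clec7a and Cd22), against 9.47% of all genes, and 2 were down-regulated (Clec4a2 and Siglece), against 4.33%. At 6 months the same counts were 2 up-regulated, against 11.3% of all genes, and 2 down-regulated, against 8.54%. At 8 months 3 were up-regulated, with Clec5a added, against 10.5% of all genes, and 2 down-regulated, against 5.37%. In either direction, 1.98%, 13.8%, 19.8% and 15.9% of all genes met the rule at these ages in turn. Counts of the other gene lists and marker lists in this text stand against the same shares.

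**Figure D1:**
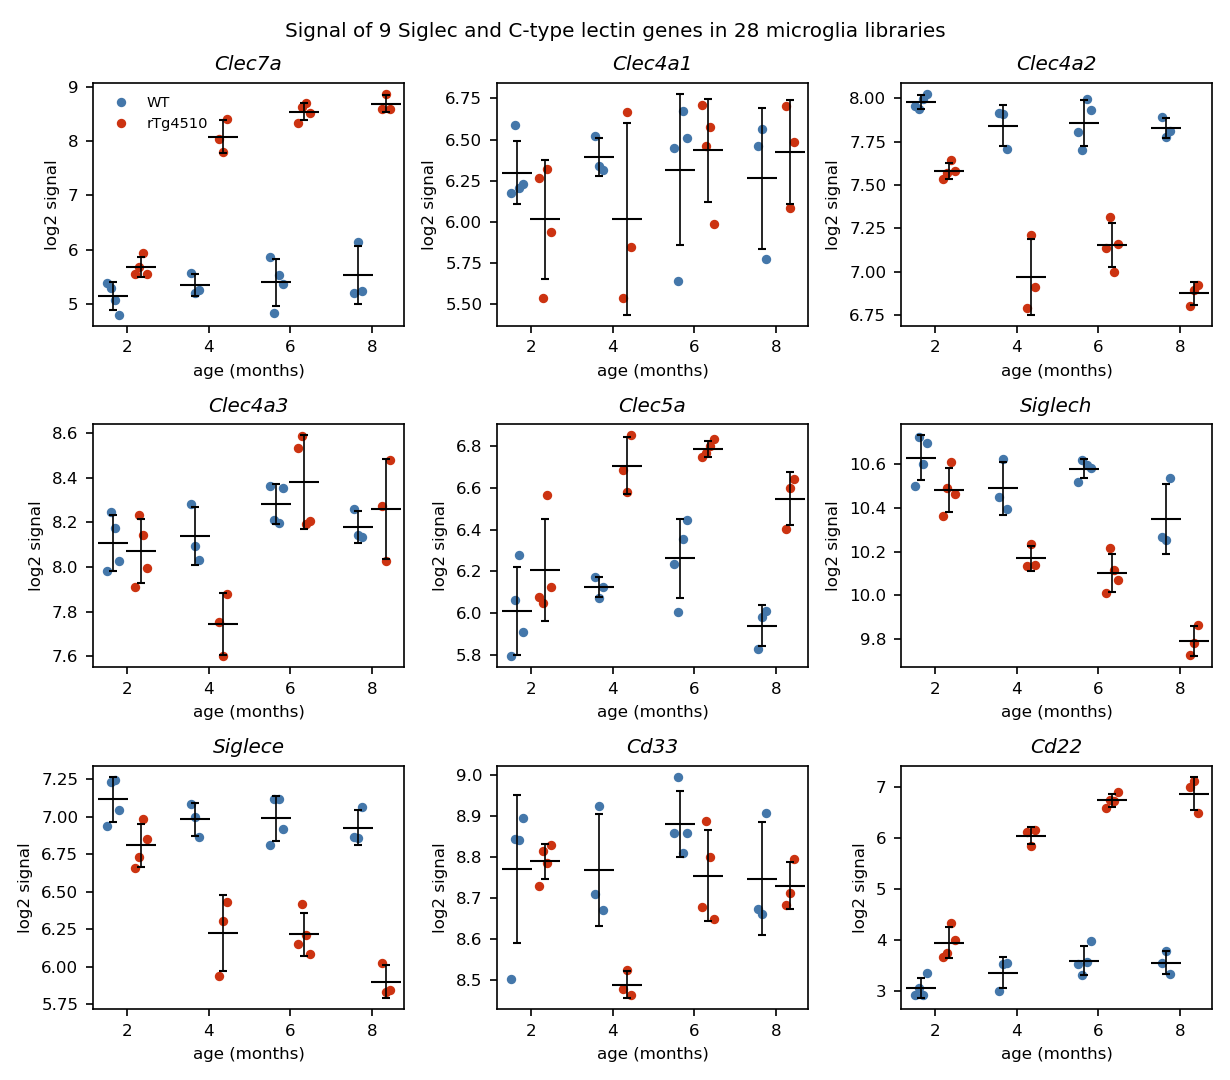
Log2 signal of each of the 9 genes (vertical axis, its own range in each panel) against age in months, with 1 point per library (28 libraries; blue, WT; red, rTg4510) and black bars for the group mean and SD. Clec7a and Cd22 separate widely from 4 months on, and Clec4a2 lies lower in rTg4510 at all 4 ages.

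Clec7a (Entrez 56644) encodes Dectin-1, the receptor for fungal beta-glucans. In WT microglia its log2 signal was 5.39, 5.29, 5.08 and 4.80 at 2 months, 5.58, 5.21 and 5.25 at 4 months, 5.86, 4.83, 5.54 and 5.36 at 6 months, and 5.20, 6.14 and 5.24 at 8 months. In rTg4510 microglia it was 5.56, 5.67, 5.93 and 5.54 at 2 months, 8.04, 7.80 and 8.40 at 4 months, 8.32, 8.63, 8.69 and 8.51 at 6 months, and 8.60, 8.87 and 8.59 at 8 months. Every rTg4510 library lay above every WT library of its age, narrowly at 2 months and by a wide gap from 4 months on. In the order of group means the 4 WT groups and the rTg4510 group at 2 months overlapped their neighbours, a gap followed, and the rTg4510 groups at 4, 6 and 8 months again overlapped one another. The log2 fold change was 0.54 (SE 0.21, limma FDR 0.184) at 2 months and did not pass, then 2.73 (SE 0.25, FDR 4.2e-08) at 4 months, 3.14 (SE 0.21, FDR 2.7e-10) at 6 months and 3.16 (SE 0.25, FDR 4.71e-09) at 8 months. On the linear scale these last changes were 6.65, 8.83 and 8.94 fold. The libraries left out gave 7.64 in rTg4510 and 4.29 in WT at 4 months, and 8.49 in rTg4510 and 5.35 in WT at 8 months.

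Clec5a (Entrez 23845) encodes a receptor that signals through DAP12. Its log2 signal at 4 months was 6.17, 6.07 and 6.12 in WT and 6.68, 6.58 and 6.85 in rTg4510, and at 8 months 5.83, 5.98 and 6.01 in WT and 6.40, 6.60 and 6.64 in rTg4510. The genotypes did not overlap at 4, 6 or 8 months, and they overlapped at 2 months, where WT ran from 5.79 to 6.28 and rTg4510 from 6.05 to 6.57. The log2 fold change was 0.19 (SE 0.11) at 2 months, 0.58 (SE 0.13) at 4 months, 0.52 (SE 0.11) at 6 months and 0.61 (SE 0.13) at 8 months, with limma FDR 0.437, 0.0022, 0.00104 and 0.0013. Thus the FDR passed at 3 ages and the 1.5-fold limit only at 8 months, where the change was 1.52 fold. That call at 8 months rests on single libraries, since the log2 fold change was 0.58 without rTg4510 replicate 2, 0.56 without rTg4510 replicate 3 and 0.55 without WT replicate 1, each under the fold limit. At 4 months the limit was passed without rTg4510 replicate 1 (0.59), without rTg4510 replicate 2 (0.64), without WT replicate 1 (0.60), and with all 32 libraries (0.79). The rTg4510 library left out at 4 months had the value 7.33, above every library kept.

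Clec4a2 (Entrez 26888) encodes DCIR, a receptor with an inhibitory motif in its cytoplasmic tail. In WT microglia its log2 signal was 7.95, 7.94, 8.00 and 8.03 at 2 months, 7.91, 7.91 and 7.71 at 4 months, 7.81, 7.70, 8.00 and 7.93 at 6 months, and 7.89, 7.78 and 7.81 at 8 months. In rTg4510 microglia it was 7.53, 7.57, 7.64 and 7.58 at 2 months, 6.79, 7.22 and 6.91 at 4 months, 7.14, 7.32, 7.0 and 7.16 at 6 months, and 6.80, 6.90 and 6.93 at 8 months. The rTg4510 libraries were the lower ones at every age, with no overlap, and the rTg4510 group at 2 months stood apart from both the WT groups above it and the older rTg4510 groups below it. In rTg4510 relative to WT, the log2 fold change was -0.40 (SE 0.08, limma FDR 0.00281) at 2 months, below the fold limit, and -0.87 (SE 0.09, FDR 2.96e-07), -0.70 (SE 0.08, FDR 3.95e-07) and -0.95 (SE 0.09, FDR 6.92e-08) at 4, 6 and 8 months. These correspond to 1.83, 1.63 and 1.94 fold lower signal.

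Clec4a1 (Entrez 269799) and Clec4a3 (Entrez 73149) are neighbours of Clec4a2 on chromosome 6 and encode receptors of the same subfamily. The signal of Clec4a1 varied more within groups than between them, with a WT range of 5.64 to 6.67 and an rTg4510 range of 5.99 to 6.71 at 6 months, and the genotypes overlapped at all 4 ages. Its log2 fold changes were -0.28, -0.37, 0.12 and 0.16 at 2, 4, 6 and 8 months, and the 95% interval ran from -0.83 to 0.26 at 2 months, from -1.0 to 0.25 at 4 months, from -0.43 to 0.66 at 6 months and from -0.47 to 0.79 at 8 months. The value turned to -0.11 at 6 months without WT replicate 2 and to -0.09 at 8 months without WT replicate 3. At 4 months it was -0.13 without rTg4510 replicate 1 and -0.70 without rTg4510 replicate 2. At 2 months it was -0.12 without rTg4510 replicate 2 and -0.19 without WT replicate 2. Clec4a3 was 8.28, 8.10 and 8.03 in WT and 7.75, 7.60 and 7.88 in rTg4510 at 4 months, where the genotypes did not overlap, and it overlapped at 2, 6 and 8 months. The rTg4510 group at 4 months was the lowest of its 8 group means and the only one that did not overlap the next. The log2 fold change of Clec4a3 at 4 months was -0.39 (SE 0.12, limma FDR 0.0233), below the fold limit, against -0.04, 0.10 and 0.08 at 2, 6 and 8 months, of which those at 6 and 8 months became -0.03 and -0.04 after quantile normalization.

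Cd22 (Entrez 12483) encodes Siglec-2, an inhibitory co-receptor best known from B cells. In WT microglia its log2 signal was 2.93, 3.05, 2.92 and 3.34 at 2 months, 3.01, 3.52 and 3.54 at 4 months, 3.53, 3.30, 3.56 and 3.98 at 6 months, and 3.54, 3.78 and 3.33 at 8 months. In rTg4510 microglia it was 3.66, 3.75, 4.34 and 4.01 at 2 months, 6.12, 5.85 and 6.16 at 4 months, 6.59, 6.74, 6.72 and 6.89 at 6 months, and 7.0, 7.11 and 6.50 at 8 months. The genotypes did not overlap at any age, and the order of group means placed all WT groups lowest, then rTg4510 at 2 months, which overlapped WT at 6 months, and then, after gaps, rTg4510 at 4 months and the overlapping groups at 6 and 8 months. The WT signal was close to the low end of the table, between 1.02 and 2.33 log2 units above the lowest value of its library. Only 2.77% to 13.9% of genes had a lower signal in the 14 WT libraries, so the fold change is taken against signals near the low end of the table. For Cd22 the log2 fold change was 0.88 (SE 0.18, limma FDR 0.00272) at 2 months, 2.69 (SE 0.20, FDR 3.83e-09) at 4 months, 3.14 (SE 0.18, FDR 2.12e-11) at 6 months and 3.32 (SE 0.20, FDR 1.61e-10) at 8 months. The call at 2 months was lost when only the 8 libraries of that age were fitted (FDR 0.074) and when all 32 libraries were fitted (FDR 0.15), with the same fold change. The rTg4510 library left out at 4 months had a Cd22 signal of 4.27, below the 3 libraries kept and above all WT libraries of that age, and at 8 months the one left out had 6.49.

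Markers of B cells were examined beside Cd22. Of 8 B-cell markers 6 were measured, and none was up-regulated at any age, while Cd79a (log2 fold change -1.64) and Cd79b (-0.77) were down-regulated at 4 months and Cr2 (-1.55) at 6 months. The calls at 4 months were lost when only the libraries of that age were fitted (FDR 0.138 and 0.102), and further for Cd79a with the replicate block (FDR 0.0765) and without rTg4510 replicate 2 or WT replicate 4 (-1.41 and -1.19) and for Cd79b without rTg4510 replicate 4 (-0.60). At 8 months, where Cd79b and Cr2 were not called, Cd79b passed with all 32 libraries (-0.76, FDR 0.018) and without WT replicate 1 (-0.62). Cr2 (-0.97, FDR 0.0664) passed with all 32 libraries (-1.31, FDR 0.0215), with the replicate block (FDR 0.0498), after quantile normalization (-1.02), without rTg4510 replicate 3 (-1.41) and without rTg4510 replicate 2 of 4 months (-0.97). The defining gene Ms4a1 had a median log2 signal of 3.96 over the 28 libraries and was at the lowest value of the library in 2 of them. The median log2 fold change of the 6 genes was -0.15, -0.71, -0.61 and -0.68 at 2, 4, 6 and 8 months. Their summed signal was mostly Ighm, whose mean alone was 12.43 in WT and 12.85 in rTg4510 at 2 months. This sum was 12.42 to 12.54 in WT and 12.82 to 12.97 in rTg4510 at 2 months, with no overlap. It was 12.2 to 12.4 in WT and 12.5 to 12.6 in rTg4510 at 4 months and 12.1 to 12.3 against 12.2 to 12.4 at 8 months. At 6 months it was 12.1 to 12.5 in WT and 12.3 to 12.5 in rTg4510, and the part of these cells in the change of Cd22 was not tested. The difference of Ighm was 0.42 (limma FDR 0.00251) at 2 months, under the fold limit. After quantile normalization its sign turned at 4, 6 and 8 months (-0.33, -0.59 and -0.42), and at 6 months it was then down-regulated (FDR 4.28e-07).

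Siglece (Entrez 83382) encodes Siglec-E, an inhibitory Siglec of myeloid cells. In WT microglia its log2 signal was 6.94, 7.23, 7.25 and 7.04 at 2 months, 7.08, 7.0 and 6.86 at 4 months, 6.81, 7.11, 7.11 and 6.91 at 6 months, and 6.86, 6.85 and 7.06 at 8 months. In rTg4510 microglia it was 6.66, 6.73, 6.99 and 6.85 at 2 months, 5.94, 6.31 and 6.43 at 4 months, 6.15, 6.42, 6.21 and 6.08 at 6 months, and 6.03, 5.83 and 5.85 at 8 months. At 2 months the genotypes overlapped, and from 4 months on every rTg4510 library lay below every WT library, with the rTg4510 group at 8 months lowest and apart from the next. The log2 fold change was -0.31 (SE 0.11, limma FDR 0.117), -0.76 (SE 0.12, FDR 9.17e-05), -0.77 (SE 0.11, FDR 7.09e-06) and -1.03 (SE 0.12, FDR 1.58e-06) at 2, 4, 6 and 8 months. The call at 4 months was lost when only the 6 libraries of that age were fitted (FDR 0.064). The libraries left out spread more widely, with 7.94 in WT and 5.81 in rTg4510 at 4 months and 7.40 and 6.65 at 8 months.

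Markers of neutrophils, cells that also express Siglec-E, were lower in rTg4510 libraries at 6 and 8 months. Of 9 measured, 0 were called at 2 and 4 months, 7 were down-regulated at 6 months and 7 at 8 months, with medians of 0.14, -0.95, -1.80 and -1.42 at 2, 4, 6 and 8 months. Their summed signal, led by Cxcr2, was 9.72 to 10.7 in WT and 8.97 to 9.23 in rTg4510 at 6 months, 10.5 to 10.7 against 9.06 to 9.71 at 8 months, and overlapped at 2 and 4 months. The count at 8 months fell to 3 without rTg4510 replicate 1, to 4 without WT replicate 1 and to 2 when only the libraries of that age were fitted. That at 4 months was not stable either. It rose to 3 with moderated variance and without rTg4510 replicate 1, 3 or 4 of 2 months. It was 2 with all 32 libraries, under the 25th percentile filter, and without rTg4510 replicate 2 of 2 or 4 months, rTg4510 replicate 1 of 8 months or WT replicate 2 of 4 months. It was 1 without rTg4510 replicate 1 of 4 months or WT replicate 1, 3 or 4 of 6 months. Without WT replicate 4 of 4 months, 1 marker was up-regulated at that age. Taken by group, no neutrophil marker lay within 1 log2 unit of the lowest value of the libraries, although single libraries could. Ly6g had a mean of 2.43 (SD 0.73) in rTg4510 at 6 months, where the lowest values of the libraries ran from 1.23 to 1.66. The part of neutrophils in the change of Siglece was not tested.

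Siglech (Entrez 233274) encodes Siglec-H, which in the brain is largely restricted to microglia and elsewhere to plasmacytoid dendritic cells. In WT microglia its log2 signal was 10.50, 10.72, 10.60 and 10.70 at 2 months, 10.45, 10.62 and 10.39 at 4 months, 10.52, 10.62, 10.60 and 10.58 at 6 months, and 10.27, 10.25 and 10.53 at 8 months. In rTg4510 microglia it was 10.36, 10.49, 10.61 and 10.46 at 2 months, 10.14, 10.23 and 10.14 at 4 months, 10.01, 10.22, 10.12 and 10.07 at 6 months, and 9.73, 9.78 and 9.86 at 8 months. The genotypes overlapped at 2 months and were separate afterwards, and the rTg4510 group at 8 months was the lowest of all. Relative to WT, the log2 fold change was -0.15 (SE 0.07, limma FDR 0.279), -0.32 (SE 0.08, FDR 0.00454), -0.48 (SE 0.07, FDR 1.08e-05) and -0.56 (SE 0.08, FDR 1.09e-05) at 2, 4, 6 and 8 months, so the FDR passed at 4, 6 and 8 months and the fold limit at none. The fold limit was passed after quantile normalization at 4, 6 and 8 months (-0.62, -0.83 and -0.88), and at 8 months also with all 32 libraries (-0.61), without rTg4510 replicate 3 (-0.60), without WT replicate 1 (-0.60) and without WT replicate 2 (-0.61). Of 6 measured markers of plasmacytoid dendritic cells, 1 was up-regulated and 2 down-regulated at 4 months and 0 were called at 2, 6 and 8 months. Of the 2 down-regulated, 0 stayed so without rTg4510 replicate 1, WT replicate 1 or WT replicate 4, and 1 without rTg4510 replicate 2 or 4. The call of Ccr9 at 4 months (-1.04) was lost without rTg4510 replicate 1 or 2 (-0.95 and -0.77) and without WT replicate 1 or 4 (-0.93 and -1.02), with all 32 libraries (-0.87, FDR 0.0738) and when only the libraries of that age were fitted (FDR 0.194). At 6 months, where it was not called (-0.53), it passed without rTg4510 replicate 4 (-0.77). Their summed signal, led by Ccr9, was 8.62 to 9.0 in WT and 8.16 to 8.55 in rTg4510 at 4 months and 8.59 to 8.94 against 8.41 to 8.76 at 8 months. It was 8.75 to 8.95 in WT and 8.49 to 8.74 in rTg4510 at 2 months, with no overlap, and 8.64 to 8.95 against 8.25 to 8.80 at 6 months. Their part in the change of Siglech was not tested.

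Cd33 (Entrez 12489) encodes Siglec-3, whose human counterpart lies at a risk locus for Alzheimer's disease. Its log2 signal was 8.71, 8.92 and 8.67 in WT and 8.48, 8.53 and 8.46 in rTg4510 at 4 months, with no overlap. At 2, 6 and 8 months the genotypes overlapped, and over all 28 libraries Cd33 ran from 8.46 to 8.99. The log2 fold change at 4 months was -0.28 (SE 0.09, limma FDR 0.0284), below the fold limit, and the 95% intervals at 2, 6 and 8 months ran from -0.14 to 0.18, from -0.29 to 0.04 and from -0.20 to 0.17. As with Clec4a3, the rTg4510 group at 4 months was the lowest group mean and did not overlap the next. The rTg4510 library left out at 4 months was lower still, at 7.72, and its WT counterpart had 8.84.

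**Figure D2:**
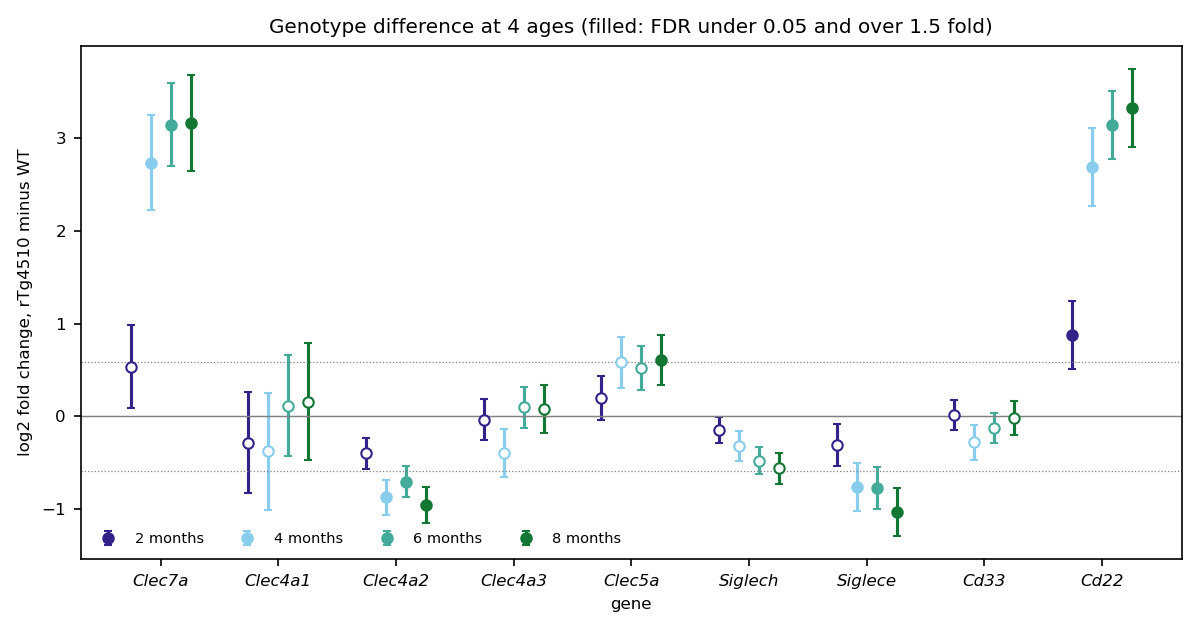
Log2 fold change, rTg4510 minus WT (vertical axis), of each of the 9 genes at 2, 4, 6 and 8 months, with 95% intervals from the fit over 28 libraries; filled points are DEGs and dotted lines mark a change of 1.5 fold. The differences of Clec7a and Cd22 rise to 3.16 and 3.32 at 8 months, and those of Clec4a2 and Siglece lie at -0.95 and -1.03.

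Counted by libraries that do not overlap between the genotypes, 3 of the 9 genes were separate at 2 months (11% of all genes), 8 at 4 months (36.6%), 6 at 6 months (32.8%) and 6 at 8 months (36.7%). Clec4a1 was the exception at 4 months. The median log2 fold change of the 9 genes was -0.04, -0.32, 0.10 and 0.08 at 2, 4, 6 and 8 months, against 0.01, -0.04, -0.04 and -0.01 over all genes.

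Whether the genotype difference itself moved with age was tested between neighbouring ages in the same limma fit. From 2 to 4 months the difference grew for 2 of 9 genes, Clec7a by 2.20 (SE 0.33, FDR 0.00021) and Cd22 by 1.80 (SE 0.27, FDR 0.000219), against 4.66% of all genes called in either direction. That of Clec4a2 moved by -0.47 (SE 0.12, FDR 0.019), short of the fold limit, which it passed without rTg4510 replicate 2 of 4 months (-0.60). The difference of Siglece moved by -0.45 (FDR 0.109) and did not pass. Over this first step 7 of 9 genes had an unadjusted p under 0.05 by limma, against 3637 of 18588 genes. From 4 to 6 months 0 of 9 genes were called, against 0.156% of all genes. At an unadjusted p under 0.05 there was 1, Clec4a3 with a change of 0.49 and FDR 0.338, against 1514 of 18588 genes. From 6 to 8 months 0 of 9 genes were called, against 0% of all genes. At an unadjusted p under 0.05 there were 0 of 9, against 841 of 18588 genes. The intervals left room for further change, for example from -0.27 to 1.09 for Clec7a and from -0.10 to 1.02 for Cd22 between 4 and 6 months.

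Within WT microglia, 0 of 9 genes were DEGs between 2 and 8 months by limma, against 1.27% of all genes. At an unadjusted p under 0.05 there were 2 of 9, against 3561 of 18588 genes. Siglech was 0.28 lower at 8 than at 2 months (log2 fold change -0.28, SE 0.07, FDR 0.037), and the change of Cd22 was 0.49 (SE 0.19, FDR 0.153). Within rTg4510 microglia, 5 of 9 were called over the same interval, against 10.5% of all genes. Clec7a rose by 3.01 (SE 0.23) and Cd22 by 2.93 (SE 0.19), whereas Siglece fell by 0.91 (SE 0.12), Clec4a2 fell by 0.71 (SE 0.09) and Siglech fell by 0.69 (SE 0.07), with FDR of 7.14e-06 or lower for each.

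The genes of the table whose signal was most like each member over the 28 libraries were found by Pearson's r, given here with the r that remains after the group means are removed. For Clec7a these were Apoe (0.986, within groups 0.679), Anxa5 (0.986, within groups 0.552) and Ly9 (0.985, within groups 0.65). For Cd22 they were Ly9 again (0.99, within groups 0.478), Ctsb (0.986, within groups 0.547) and Cd63-ps (0.985, within groups 0.506), and Clec7a and Cd22 had an r of 0.979 with each other and 0.263 within groups. For each gene named here as most like Clec7a or Cd22, r within groups was lower than r over the 28 libraries. The genes most like Clec5a included Atp6ap1 (0.928, within groups 0.692) and Wdr83os (0.926, within groups 0.803).

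Among the genes that fell, Clec4a2 was most like Cysltr1 (0.958, within groups 0.449), BC035044 (0.951, within groups 0.461) and Agmo (0.948, within groups 0.239). Siglece was most like Cd164 (0.947, within groups 0.495), Sesn1 (0.947, within groups 0.489) and the microglial receptor gene Gpr34 (0.946, within groups 0.451). Siglech was most like Selplg (0.959, within groups 0.671), Ptgs1 (0.959, within groups 0.666) and Sting1 (0.956, within groups 0.69). For the genes with small differences the closest values were lower. Clec4a1 was most like Trpv4 (0.715, within groups 0.728), Tgfbi (0.678, within groups 0.664) and Tlr8 (0.676, within groups 0.777), Clec4a3 most like Ccr2 (0.724, within groups 0.416), Rnf185 (0.714, within groups 0.201) and Pira1 (0.697, within groups 0.452), and Cd33 most like Med20 (0.801, within groups 0.77), Gm14537 (0.77, within groups 0.729) and Etnk1 (0.759, within groups 0.838). Within groups Siglech and Cd33 also varied together (r = 0.814), which was the highest such value among pairs of the 9 genes.

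Of 5 other Siglecs 4 were measured. Siglecf, an inhibitory Siglec best known from eosinophils, was up-regulated at all 4 ages, with log2 fold changes of 0.93 (SE 0.14), 1.88 (SE 0.16), 1.48 (SE 0.14) and 1.41 (SE 0.16) at 2, 4, 6 and 8 months. Siglecg, an inhibitory Siglec best known from B cells, was down-regulated at 4, 6 and 8 months (-1.15, -2.07 and -2.10, with SE 0.19, 0.17 and 0.19), and its call at 4 months was lost when only the libraries of that age were fitted (FDR 0.056). Of these 4 other Siglecs, the number down-regulated rose from 1 to 2 at 8 months without rTg4510 replicate 1 or WT replicate 3, and at 4 months with all 32 libraries. Of the 8 Siglec genes measured, Cd22 and Siglecf were up-regulated and Siglece and Siglecg down-regulated at 1 or more ages. Siglech, Cd33, Siglec1 and Mag were not called.

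Of 31 other C-type lectin receptors 24 were measured. Over all genes, 1.58%, 9.47%, 11.3% and 10.5% were up-regulated and 0.403%, 4.33%, 8.54% and 5.37% down-regulated at 2, 4, 6 and 8 months. Of the 24, 1 was up-regulated and 0 down-regulated at 2 months, 4 and 3 at 4 months, 3 and 4 at 6 months, and 3 and 2 at 8 months. Their median log2 fold changes were -0.14, -0.43, -0.18 and -0.11. The down-regulated count at 4 months was 1 without WT replicate 1, 6 without WT replicate 4 and 0 when only the libraries of that age were fitted. That at 6 months was 2 with the replicate block, with all 32 libraries, without rTg4510 replicate 2 or 4 and without WT replicate 1, 3 or 4. At 8 months it was 0 without rTg4510 replicate 1 or 2 or WT replicate 2. It was 0 also with the block, with all 32 libraries and with only that age fitted. It was 1 without WT replicate 1 of that age. Libraries of other ages also took it to 1, namely rTg4510 replicates 1 and 2 of 2 months, 4 of 4 months and 1 and 2 of 6 months, and WT replicates 1, 2 and 3 of 2 months and 1, 3 and 4 of 6 months. Olr1, which encodes the scavenger receptor LOX-1, had log2 fold changes of 2.50 (SE 0.25), 2.90 (SE 0.22) and 3.34 (SE 0.25) at 4, 6 and 8 months, but its WT signal was only 0.32 to 1.46 log2 units above the lowest value of each library, so that the size of these changes is uncertain. Klrb1b, an inhibitory receptor of natural killer cells, was higher by 2.25, 2.51 and 2.17, and Cd72, an inhibitory co-receptor of B cells, by 1.95, 1.68 and 1.77 at 4, 6 and 8 months. The call of Klrb1b at 2 months (0.87, FDR 0.0392) was lost with the replicate block (FDR 0.111), when only the libraries of that age were fitted (FDR 0.138) and with all 32 libraries (FDR 0.214). It was also lost without rTg4510 replicate 2, 3 or 4 (0.76, 0.86 and 0.79) and without WT replicate 2, 3 or 4 of that age (0.84, 0.84 and 0.82). Clec14a, an endothelial gene, was down-regulated at 6 months (-1.86, SE 0.47) with an SD of 0.70 and 0.73 in the WT and rTg4510 groups.

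Downstream of the activating receptors, 15 of 15 genes were measured. Over all genes, 9.47%, 11.3% and 10.5% were up-regulated at 4, 6 and 8 months. Of the 15, 4 were up-regulated at each of these ages and 0 at 2 months (0.37 for Tyrobp, FDR 0.00125, under the fold limit). These were the adaptor genes Tyrobp (1.35, 1.31 and 1.17), Hcst (1.38, 1.31 and 1.15) and Fcer1g (0.72, 0.69 and 0.67), and Cybb (1.19, 1.47 and 1.44), a subunit of the phagocyte oxidase. The calls of Fcer1g were lost after quantile normalization (0.31, 0.17 and 0.21), and that of Cybb at 8 months when only the libraries of that age were fitted (FDR 0.0522). The kinase gene Syk (-0.35, -0.28 and -0.23) and Card9 (-0.42, -0.33 and -0.27), through which Dectin-1 signals, had limma FDR of 0.0228, 0.0251 and 0.131 and of 0.00662, 0.01 and 0.0785, so they passed the FDR at 4 and 6 months and the fold limit at no age. Of 6 inhibitory phosphatase and kinase genes none was called at any age, with Ptpn6 at 0.22, 0.27, 0.40 and 0.47 and Inpp5d at 0.02, -0.13, -0.08 and -0.11 at 2, 4, 6 and 8 months. Ptpn6 passed the FDR at all 4 ages (0.0405, 0.00953, 3.62e-05 and 4.26e-05) and the fold limit at none. The Inpp5d value at 2 months and that of Fcer1g (0.04) turned negative after quantile normalization (-0.07 and -0.16).

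Sialic acid, the ligand of the Siglecs, is made, transferred and removed by 25 listed genes, of which 24 were measured. Up-regulated and down-regulated were 1 and 0 at 2 months, 3 and 0 at 4 months, 6 and 1 at 6 months and 3 and 0 at 8 months. Over all genes, 1.58%, 9.47%, 11.3% and 10.5% were up-regulated and 0.403%, 4.33%, 8.54% and 5.37% down-regulated at these ages. The median log2 fold change of the list was 0.02, 0.10, 0.07 and 0.21. St8sia6, a sialyltransferase gene, was higher in rTg4510 than in WT at all 4 ages, by 0.86 (SE 0.09), 1.65 (SE 0.10), 1.47 (SE 0.09) and 1.5 (SE 0.10). St8sia1, which encodes the synthase of ganglioside GD3, was higher by 1.17 and 1.08 at 4 and 6 months. At 2 months it was not called (0.59, FDR 0.226) but passed without WT replicate 3 (0.84, FDR 0.0447). The up-regulated count of the list at 2 months was 2 without that library and without WT replicate 1. The down-regulated count at 4 months was 1 without rTg4510 replicate 2. St3gal1 was higher by 0.62 and 0.81 at 6 and 8 months. The call of St3gal1 at 6 months was lost without WT replicate 4 (0.54) and that at 8 months when only the libraries of that age were fitted (FDR 0.099). St6galnac3 was lower by 2.02 (SE 0.53) at 6 months, with an SD of 0.86 and 0.98 within the groups. Its call was lost when only the libraries of that age were fitted (FDR 0.0679).

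Markers of the other cell types that a CD11b capture from brain could carry were counted in the same way. Of conventional dendritic cell markers (6 of 6 measured) 1, 2, 1 and 2 were down-regulated at 2, 4, 6 and 8 months and 0 up-regulated. The count became 0 at 2 months without WT replicate 2 and 2 at 6 months without WT replicate 2. It was 1 at 8 months without rTg4510 replicate 1 or 2 or WT replicate 2. Of monocyte markers (6 of 6) 0 were called at 2 months, 1 was down-regulated at 4 months, 2 were up-regulated and 3 down-regulated at 6 months, and 1 was up-regulated at 8 months. The marker down-regulated at 4 months was Ccr2 (log2 fold change -1.05, limma FDR 0.00998). It was also the gene most like Clec4a3, which was itself lower in rTg4510 at that age (-0.39). The call of Ccr2 was lost without WT replicate 1, and 1 down-regulated marker appeared at 8 months without rTg4510 replicate 3. The 3 at 6 months became 0 without rTg4510 replicate 4 or WT replicate 4, and 1 without rTg4510 replicate 1 or WT replicate 2. The 2 up-regulated there became 1 without rTg4510 replicate 1, 2 or 3 or WT replicate 2, 3 or 4. Of border macrophage markers (7 of 7) 1 was down-regulated at 6 months and 0 were called at the other ages. At 4 months 2 were down-regulated without WT replicate 4 and 1 without rTg4510 replicate 4 of 6 months. At 8 months 1 was up-regulated without WT replicate 2 and 1 down-regulated without WT replicate 3. Of T and NK cell markers (4 of 7) 1 was down-regulated at 4 months and 2 at 6 months. The former was lost without rTg4510 replicate 2 or 4 or WT replicate 4, and the latter became 1 without rTg4510 replicate 4. At 8 months 1 was down-regulated without WT replicate 3 or rTg4510 replicate 4 of 6 months, and 1 up-regulated without rTg4510 replicate 3. Of neuronal markers (3 of 6) 1 was down-regulated at 6 months, but not without rTg4510 replicate 1, 3 or 4 or WT replicate 1 or 2. At 8 months 1 was down-regulated without rTg4510 replicate 2 or WT replicate 3. The same held without rTg4510 replicate 2 of 2 or 6 months and without WT replicate 4 of 2 or 4 months. Of astrocyte markers (5 of 5) 1 was up-regulated and 2 down-regulated at both 6 and 8 months. The 2 became 1 without rTg4510 replicate 3 or 4 or WT replicate 4 at 6 months, and without rTg4510 replicate 2 or 3 or WT replicate 1 at 8 months. At 4 months 1 was up-regulated without rTg4510 replicate 1 and 1 down-regulated without WT replicate 1. Of oligodendrocyte markers (6 of 6) 0 were called at any age, but 1 was down-regulated at 8 months without rTg4510 replicate 1 or WT replicate 3. Of endothelial markers (5 of 5) 1 was up-regulated at 4, 6 and 8 months and 1, 2 and 1 were down-regulated. The one up-regulated at 4 months was lost without WT replicate 4. The 2 at 6 months became 1 without rTg4510 replicate 3 or 4 or WT replicate 1. The part of these cells in the values of the 9 receptors was not tested.

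**Figure D3:**
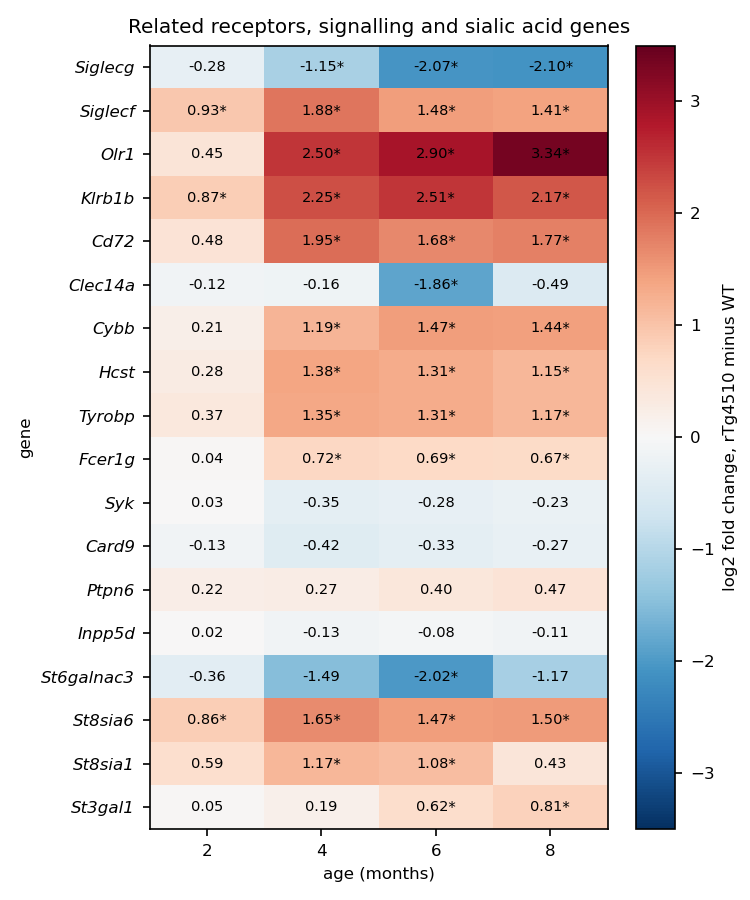
Log2 fold change, rTg4510 minus WT (colour and printed value), at 2, 4, 6 and 8 months of 18 genes chosen from the lists of other Siglecs, other C-type lectin receptors, signalling genes and sialic acid genes; an asterisk marks a DEG. Siglecf, Klrb1b and St8sia6 carry an asterisk at every age, and Syk, Card9, Ptpn6 and Inpp5d at none.

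All 9 genes are annotated as protein-coding in RefSeq on GRCm38.p6, the build family that the submitters' processing notes name (GRCm38). The C-type lectin genes lie on chromosome 6, Clec4a1 at chr6:122921848-122934619, Clec4a3 at chr6:122952515-122969878, Clec4a2 at chr6:123122690-123143999, Clec7a at chr6:129461591-129472785 and Clec5a at chr6:40574898-40585805. The Siglec genes lie on chromosome 7, Cd22 at chr7:30865404-30880342, Cd33 at chr7:43527399-43537424, Siglece at chr7:43648882-43672044 and Siglech at chr7:55768154-55779448. How reads that match several genes were assigned is not given in the sources used here, so the members of close subfamilies are uncertain to that extent. Of all stretches of 100 bases, the length of a read, in the annotated transcripts of each gene, 2.14% of those of Clec4a2 were also found in Clec4a4, 4.84% of those of Cd22 in Gm29439, and 0% of those of the other 7 genes in any other gene. Clec4a4, named here after its values were seen, encodes another receptor of the DCIR subfamily and had log2 fold changes of -0.16, -0.87, -0.79 and -0.86 at 2, 4, 6 and 8 months, the last 3 of them DEGs, that at 8 months not when only the libraries of that age were fitted (FDR 0.0702). Gm29439 is an antisense transcript at chr7:30872733-30873333 on the plus strand, opposite Cd22, and whether reads were counted by strand is not given.

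Sequences before listed start sites of the genes that changed most, 2 that rose and 2 that fell in rTg4510, are printed because each pair moved together. RefSeq promoter entries on GRCm38.p6 were found for 9 of 9 genes, and the 250 bases before the listed transcript start (for Clec7a and Clec4a3 the one farthest upstream of 2 listed) were searched on both strands for GAGGAA, the core of the box bound by the myeloid factor PU.1, TGANTCA, an AP-1 site, and CACGTG, an E-box bound by factors of the MITF family, motifs chosen after the values were seen. The windows of Siglece and Cd22, like that of Cd33, lie inside the annotated span of the gene, since the listed start is not its outermost end. Capitals mark matches to any of the 3, which do not overlap in these windows.
Clec7a promoter, chr6:129472786-129473035, minus strand: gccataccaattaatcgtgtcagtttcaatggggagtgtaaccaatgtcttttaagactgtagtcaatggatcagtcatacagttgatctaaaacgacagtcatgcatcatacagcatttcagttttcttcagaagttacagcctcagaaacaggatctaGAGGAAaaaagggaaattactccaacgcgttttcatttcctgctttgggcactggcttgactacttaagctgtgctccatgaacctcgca
Cd22 promoter, chr7:30879029-30879278, minus strand: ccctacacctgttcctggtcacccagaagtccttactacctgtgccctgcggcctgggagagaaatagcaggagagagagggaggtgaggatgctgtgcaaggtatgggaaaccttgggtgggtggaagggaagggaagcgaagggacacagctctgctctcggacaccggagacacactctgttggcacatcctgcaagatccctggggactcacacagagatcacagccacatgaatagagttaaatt
Clec4a2 promoter, chr6:123122440-123122689, plus strand: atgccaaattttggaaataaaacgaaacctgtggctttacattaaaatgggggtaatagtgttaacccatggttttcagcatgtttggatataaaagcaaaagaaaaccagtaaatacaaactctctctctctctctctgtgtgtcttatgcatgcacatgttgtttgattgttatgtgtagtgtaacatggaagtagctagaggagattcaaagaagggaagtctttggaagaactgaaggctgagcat
Siglece promoter, chr7:43660162-43660411, minus strand: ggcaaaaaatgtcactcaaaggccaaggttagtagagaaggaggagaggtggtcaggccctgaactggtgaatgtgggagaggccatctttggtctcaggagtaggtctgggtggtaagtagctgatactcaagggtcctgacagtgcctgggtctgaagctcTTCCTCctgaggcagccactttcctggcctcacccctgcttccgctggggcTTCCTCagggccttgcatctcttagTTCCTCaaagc
The promoter of Clec7a held 1 match to GAGGAA, that of Siglece 3, all on the opposite strand, and those of Cd22 and Clec4a2 held 0. Of 32851 promoters of the same length, 23.3% held GAGGAA, 6.75% TGANTCA and 6.02% CACGTG, and neither of the last 2 was found in the 4 windows shown. A match is a string of letters and not a measured site, and the part of these motifs in the changes was not tested.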

How the data were processed

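RNA from CD11b-captured mouse microglia was sequenced by the authors, who summarised exon reads into 1 signal a gene; the deposited table holds these on the log2 scale, set to a common median. The 28 libraries that the study kept were fitted together for 18588 genes with limma 3.58.1 in R 4.3.3, as 8 group means with no covariate. The residual variance of each gene was not moderated (20 degrees of freedom). Contrasts were the genotype difference at each age, its change between neighbouring ages, and 8 minus 2 months within each genotype. The FDR is the Benjamini-Hochberg value over all genes within a contrast, and a call needed FDR under 0.05 and a change above 1.5 fold; all tests are two-sided. The 9 receptors were all named; from each related list up to 4 called genes with the largest change were named, with Tyrobp, Fcer1g, Syk, Card9, Ptpn6 and Inpp5d added whatever their values. The members and lists were chosen with earlier results of these data known. The alternatives were moderated variance, replicate number as a block, only the groups of the age, all 32 libraries, quantile normalization, a filter at the 25th percentile, each library left out, and the FDR alone. The fit was tested on simulated data.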

Additional observations from a re-analysis of the deposited data

Results flagged for a closer look

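In 3 of the 36 combinations of a gene and a group of 4 libraries, 1 library lay far from the others. Clec4a1 was 6.59 in WT replicate 2 at 2 months, where the others ran from 6.17 to 6.23. Clec5a was 6.57 in rTg4510 replicate 3 at 2 months, where the others ran from 6.05 to 6.13. Cd33 was 8.50 in WT replicate 1 at 2 months, where the others ran from 8.84 to 8.90. Chance alone puts about 5% of groups past this limit.

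The genotype difference moved between 2 and 4 months, by the test of that change, for Clec7a (2.20), Cd22 (1.80) and Clec4a2 (-0.47, under the fold limit).

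In libraries outside the comparisons, the rTg4510 replicate left out at 4 months had Clec7a at 7.64, Clec5a at 7.33 and Cd22 at 4.27, above the WT libraries of that age, which ran from 5.21 to 5.58, from 6.07 to 6.17 and from 3.01 to 3.54. The rTg4510 replicate left out at 8 months had Clec7a at 8.49 and Cd22 at 6.49, above WT ranges of 5.20 to 6.14 and 3.33 to 3.78.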

How the results depend on the processing

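Of the values of the 9 receptors outside leave-one-out, 409 kept direction and side of the threshold, 5 passed it only under the alternative, 3 lost it and 6 changed sign; leaving out 1 library, 2213 kept both, 7 and 3 crossed the threshold and 45 changed sign. Moderated variance moved no count of receptors or of all genes called past 1.5 times, and the replicate block gave 376, 2553, 3712 and 2993 calls over all genes at 2, 4, 6 and 8 months, against 368, 2564, 3689 and 2950, and the same counts of receptors. Same-number libraries of the genotypes had r from -0.0999 to 0.291 (11 of 14 pairs above 0.1), and 23 of 28 libraries had their highest r with the same number, by age 7 of 8, 2 of 6, 8 of 8 and 6 of 6; this is a hint from the data, not the design. Signs turned under quantile normalization for Cd33 at 2 months (-0.047) and 2 to 8 months in WT (0.049), Clec4a3 at 6 and 8 months (-0.028 and -0.036), Fcer1g and Inpp5d at 2 months (-0.16 and -0.069) and Ighm at 4, 6 and 8 months (-0.33, -0.59 and -0.42), and with all 32 libraries for Clec14a (0.46) and Cr2 (0.07) at 4 months, Siglece from 4 to 6 months (0.32) and Cd33 from 2 to 8 months in WT (0.029). The cause was not tested. Quantile normalization took the share of calls that were higher at 2 months from 79.6% to 68.3%.

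With only the groups of the age, receptors called higher at 2 months went from 1 to 0 and lower at 4 months from 2 to 1, and all genes called were 244, 1561 and 1854 at 2, 4 and 8 months. With all 32 libraries the former was also 0, and all genes called were 165 at 2 months, 6 for the change from 4 to 6 months and 43 for WT from 2 to 8 months. For the change from 4 to 6 months (29 genes) the block gave 11, quantile normalization 13 and the 25th percentile filter 7. With the FDR alone, receptors called lower were 1 at 2 months, 5 at 4 months, 1 for the change from 2 to 4 months and 1 for WT from 2 to 8 months, and all genes called were 1121, 4317, 6332 and 4784 at the ages, 1363 for the change from 2 to 4 months, 783 for WT and 4025 for rTg4510 from 2 to 8 months. The cause was not tested.

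Leaving out 1 library in turn gave ranges that cross 0 at 2 months for Clec4a3 (-0.091 to 0.017), Cd33 (-0.071 to 0.060), Clec14a (-0.43 to 0.053), Fcer1g (-0.019 to 0.077), St3gal1 (-0.013 to 0.097), Syk (-0.0052 to 0.052), Inpp5d (-0.038 to 0.052) and Cd79b (-0.15 to 0.027). At 4 months this held for Clec14a (-0.74 to 0.17) and Cr2 (-0.55 to 0.14), at 6 months for Clec4a1 (-0.11 to 0.27) and Ighm (-0.061 to 0.098), and at 8 months for Clec4a1 (-0.088 to 0.33), Clec4a3 (-0.028 to 0.20), Cd33 (-0.060 to 0.062) and Cd79a (-0.56 to 0.15). It held for the change of the difference from 2 to 4 months for Clec4a1 (-0.42 to 0.15), from 4 to 6 months for Clec5a (-0.14 to 0.016) and Siglece (-0.16 to 0.083), and from 6 to 8 months for Clec7a (-0.15 to 0.32), Clec4a1 (-0.20 to 0.27), Clec4a3 (-0.13 to 0.098) and Siglech (-0.13 to 0.0069). In WT from 2 to 8 months it held for Clec4a1 (-0.18 to 0.21), Clec5a (-0.14 to 0.018) and Cd33 (-0.11 to 0.019). The receptors called lower for the change from 2 to 4 months ran from 0 to 1, all genes called for the change from 4 to 6 months from 6 to 33, and those for WT from 2 to 8 months from 95 to 334. The block could not be fitted for changes from 2 to 8 months, and the FDR alone applies to counts only. Groups held 3 or 4 pools, and signals near the lowest value limit fold changes of Cd22 and Olr1.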
